A study of Mus musculus with 40 samples.

Results

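Fatty acid and triglyceride synthesis was followed through 35 genes chosen by symbol, out of 20078 genes across 4 expression tables. They ran from the transcriptional regulators and acetyl-CoA supply through chain building, elongation and desaturation to glycerol acylation and the last step of triglyceride assembly. RNA came from female and male C57BL/6J mice, an inbred laboratory strain, and from 2 tissues of each sex, liver and the gonadal white fat pad (gWAT). It was read by 3′-tag sequencing, which samples the 3′ ends of polyadenylated transcripts. The exposed groups were daughters and sons of fathers given nicotine, and the control groups were daughters and sons of control fathers, whose columns the tables call DMSO. All carried the same genotype. Every sample is listed under batch 1, and the sample titles name no batch. Each of the 8 groups of tissue, sex and paternal exposure had 5 labelled samples, and 39 library columns were analysed, with 4 control columns in male gWAT. The offspring's age, litter, diet and fasting state, and which father each had, were unstated in the labels, so p-values describe the spread among the sequenced samples alone, and this spread may be technical.

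Cells make palmitate from citrate that leaves the mitochondrion. ATP citrate lyase splits it into acetyl-CoA, acetyl-CoA carboxylase makes malonyl-CoA, and fatty acid synthase joins the units with NADPH, part of which comes from malic enzyme. Elongases and desaturases then lengthen and unsaturate the chain, acyltransferases place acyl groups on glycerol 3-phosphate, lipins remove the phosphate to leave diacylglycerol, and diacylglycerol acyltransferases add the last acyl group. In liver and fat many of these genes are targets of SREBP-1c (gene Srebf1), which insulin raises, and of ChREBP (gene Mlxipl), which responds to sugar, and they are known to be high after feeding and low in fasting.

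Values below are DESeq2 normalized counts (read counts divided by 1 size factor per library) in libraries 1 to 5 of a group, in that order (in male gWAT, control columns 1 to 4 as the table numbers them, which could not be tied to the 5 labelled samples), unless a mean ± SD is given. Log2 changes subtract the control mean from the nicotine mean of log2(normalized count + 1), a scale that understates changes of low genes, and come with their standard error (SE). Adjusted p-values are from limma, by Benjamini and Hochberg's method over all genes tested in a table, and a gene is called at 0.05 or less. Libraries held 1543208 to 2239073 reads assigned to genes. All 8 listed hepatocyte markers were read in liver and all 8 adipocyte markers in gWAT. Some libraries stood apart. In male liver, nicotine libraries 1 and 5 resembled each other (Pearson r of 0.97 across genes) and were farther from the rest; their 8 male-biased liver genes summed to 1172 and 1706 normalized counts, against 7012 to 23314 in the controls. Male liver nicotine 2 carried pancreatic transcripts (summed markers 8018) and nicotine 4 muscle transcripts (5898). Female gWAT control 2 carried muscle transcripts (23857). In male gWAT nicotine 1 and control column 1 carried the most epididymal transcripts (16241 and 20874). The other nicotine libraries there also carried them (1311 to 3090), while control columns 2, 3 and 4 had 18.2, 137 and 3463. Markers of lipid-loaded macrophages were highest in male gWAT nicotine 3 (3810, against 143 to 329 in the control columns). Hepatocyte markers were highest there in nicotine 1 (3811, against 1120 to 1670 in the control columns). In female liver, muscle markers were highest in nicotine 5 and control 4 (288 and 181). In such bulk tissue, fewer cells of a type and less RNA per cell cannot be told apart.

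The pattern of the pathway in control libraries was read first, as CPM, a gene's reads scaled by the total reads of its library. The tables were normalized separately, so this is a description of the same gene in different tissues and no test was made. The order of the tissues was not counted over all genes. The counts of synthesis genes below therefore cannot show whether the pathway differs from other genes. In all, 7 genes lay higher in liver than in gWAT in every control library of both sexes: the elongation genes Elovl2, Elovl5 and Hacd3, the desaturases Fads1 and Fads2, the acyl-CoA synthetase Acsl5, and Lpin2. The other elongation genes, Elovl1, Elovl6 and Tecr, overlapped between the tissues. For Elovl6 in male gWAT, control column 1 stood apart, with 420 normalized counts against 56 to 85.6 in the other control columns. Elovl2, which lengthens polyunsaturated acyl chains, averaged 726 ± 66.8 CPM in female liver against 1.74 ± 0.56 CPM in female gWAT (SD, n = 5 each). Fads2, the first desaturase of the polyunsaturated series, averaged 1062 ± 102 CPM in liver against 70.1 ± 27.7 CPM in gWAT of females, and 1238 ± 221 CPM in liver against 218 ± 171 CPM in gWAT of males (n = 5 and 4).

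The opposite order held for Scd2, Gpat3, Gpat4, Agpat1, Lpin3, Dgat1 and Pnpla3, which lay above liver in every gWAT control library of both sexes. Scd2, a stearoyl-CoA desaturase, averaged 4.5 ± 1.95 CPM in female liver and 177 ± 123 CPM in female gWAT. Dgat1, one of the enzymes that finish triglyceride, averaged 9.62 ± 3.61 CPM in female liver and 147 ± 70.8 CPM in female gWAT, and 12.0 ± 2.31 and 99.9 ± 36.2 CPM in the same tissues of males. Paralogs therefore differed in their order between the tissues. Lpin2 was higher in liver than in gWAT, Lpin3 was higher in gWAT than in liver, and Lpin1 overlapped between the tissues in both sexes. Within gWAT, Lpin1 had the highest mean of the 3, 369 CPM in females and 519.5 CPM in males. Lpin2 averaged 15.1 and 28.3 CPM there, and Lpin3 16.9 and 23.0 CPM. Fasn, the palmitate-making enzyme, averaged 367 ± 62.5 CPM in liver and 1962 ± 1213 CPM in gWAT of females, without overlap; in males it averaged 225 ± 75.4 CPM in liver and 662 ± 298 CPM in gWAT, and the libraries overlapped. Altogether 11 genes overlapped between the tissues in both sexes, among them Srebf1, Acly, Acaca, Elovl6 and Dgat2. Mogat1, a monoacylglycerol acyltransferase, was analysed in gWAT alone.

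In daughters' liver the lipins Lpin1 and Lpin2 rose with paternal nicotine and the palmitate-making core did not pass the test. Of 32 synthesis genes tested, 2 rose and none fell, where 3.28% of all genes tested were called (1.61% higher and 1.67% lower). Both are phosphatidate phosphatases that make diacylglycerol; lipin 1 is also known as a transcriptional coactivator in mouse liver. Lpin1 had 1039, 991, 1719, 1325 and 1166 normalized counts in nicotine livers, against 688, 758, 413, 271 and 301 in control livers (log2 change 1.45, SE 0.23, adjusted p = 0.000912). All 5 nicotine livers lay above all 5 controls, and controls 1 and 2 were the highest of a wide control spread. Lpin2 had 648, 715, 749.8, 867 and 722 in nicotine livers, against 527, 639, 596, 481 and 534 in control livers (log2 change 0.41, SE 0.09, adjusted p = 0.0175). Its groups did not overlap either; groups that do not overlap with nicotine higher were found for 2.25% of all genes tested, and with nicotine lower for 2.49%, which no synthesis gene had. The third lipin, Lpin3, averaged 7.71 ± 2.50 in nicotine livers and 6.59 ± 5.20 in control livers, below the mean of 10 needed for the test. Lpin1 stayed called when each library was left out in turn (log2 change 1.27 to 1.64), while Lpin2 was called in 7 of these 10 fits (adjusted p up to 0.0556), not without control 4, control 5 or nicotine 4. Without both control 4 and nicotine 5, Lpin1 had a change of 1.29 (adjusted p = 0.00894) and Lpin2 of 0.37 (adjusted p = 0.0850). Beside these values, the 5 endothelial markers summed to 484 to 591 in nicotine livers and 661 to 710.4 in control livers, without overlap, and none of the 5 was called. Their part in the rise of the lipins was not tested.

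The start regions of these 2 genes are shown because both were called higher in both tissues of daughters. In gWAT both calls were lost with another test and in most fits that left out a library, as given below. The 250 bases before the RefSeq transcript start (GRCm38.p6) run 5′ to 3′ on the gene's strand; capitals mark CACGTG, the E-box core shared by ChREBP, USF and clock factors. For Lpin2 the first of several annotated starts is given.
Lpin1, chr12:16610967-16611216, minus strand: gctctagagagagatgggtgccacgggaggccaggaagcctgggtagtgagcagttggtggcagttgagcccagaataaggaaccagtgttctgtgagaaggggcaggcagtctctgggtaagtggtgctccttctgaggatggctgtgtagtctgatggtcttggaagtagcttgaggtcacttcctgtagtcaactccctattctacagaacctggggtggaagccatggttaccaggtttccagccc
Lpin2, chr17:71183282-71183531, plus strand: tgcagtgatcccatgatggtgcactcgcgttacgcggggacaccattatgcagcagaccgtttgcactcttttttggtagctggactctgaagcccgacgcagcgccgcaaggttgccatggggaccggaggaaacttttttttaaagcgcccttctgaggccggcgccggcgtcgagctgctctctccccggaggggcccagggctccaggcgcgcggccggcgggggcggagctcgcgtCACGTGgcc
The windows of 29 of the 35 genes were read on both strands for CACGTG, for CCAAT (the core bound by NF-Y) and for TCACNCCAC (a sterol regulatory element core, N being any base). These genes have 40 windows, since some have several annotated starts. CACGTG was found in 5 of the 40, 1 each for Elovl5, Hacd3, Lpin2, Mlxipl and Slc25a1, and 6.02% of 32851 annotated mouse promoters hold it. Lpin2 carried it with its first base 9 before the start, and the Lpin1 window held none of the 3 motifs. A match describes these letters only. Dgat1, Dgat2, Fads1, Gpat4, Scd1 and Scd2 were not read.

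Among the regulators in daughters' liver, Srebf1 and Thrsp leaned upward without passing. Srebf1 had 129.7, 112, 139.6, 70.9 and 126 normalized counts in nicotine livers, against 52.4, 91.6, 83.4, 93.2 and 67.3 in control livers (log2 change 0.56, SE 0.18, adjusted p = 0.0933). Thrsp, a small protein that goes with lipogenesis and answers thyroid hormone and carbohydrate, had 516, 494, 1256, 707 and 633 in nicotine livers, against 388, 376, 600.4, 400.4 and 450.4 in control livers (log2 change 0.64, SE 0.19, adjusted p = 0.0713). Nicotine libraries 1, 2, 3 and 5 for Srebf1 lay above every control and nicotine 4 lay among them; for Thrsp, nicotine 3 was the highest of all. Mlxipl averaged 294 ± 50.1 in nicotine livers and 315 ± 46.1 in control livers (log2 change -0.11).

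The core of the pathway showed small differences in daughters' liver. Fasn had 481, 656, 956, 497 and 860.5 in nicotine livers, against 661, 817, 891, 578 and 686 in control livers, with a log2 change of -0.11 (95% interval -0.45 to 0.23). Acly (0.25), Acaca (0.09), Acacb (-0.06), Elovl6 (0.04) and Scd1 (-0.14) likewise did not pass. Elovl5, an elongase of polyunsaturated chains, had 2510.3, 1714, 1860.5, 1806 and 2669 in nicotine livers, against 2131, 3493, 2925, 2868 and 2973 in control livers (log2 change -0.45, SE 0.13, adjusted p = 0.0660). Control 1 lay within the nicotine range and the other controls above it. Elovl2 (-0.39, adjusted p = 0.0846) and Acsl3, a long-chain acyl-CoA synthetase (-0.40, adjusted p = 0.0592), also had negative changes that missed the threshold, while the desaturases Fads1 (-0.08) and Fads2 (-0.05) had changes near 0. In the authors' deposited table, which uses another test, Acsl3 (adjusted p = 0.0496) and Elovl5 (adjusted p = 0.0418) pass as well as Lpin1 and Lpin2. Over the 32 genes, 17 changes were positive and 15 negative, 10 had an unadjusted p below 0.05 (17.6% of all genes had), and the median was 0.015, against -0.005 over all genes tested. Acylation enzymes had a median of -0.15 over 6 genes, with Gpam (0.28) and Gpat4 (0.30) positive and Agpat2 (-0.30) negative.

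**Figure D1:**
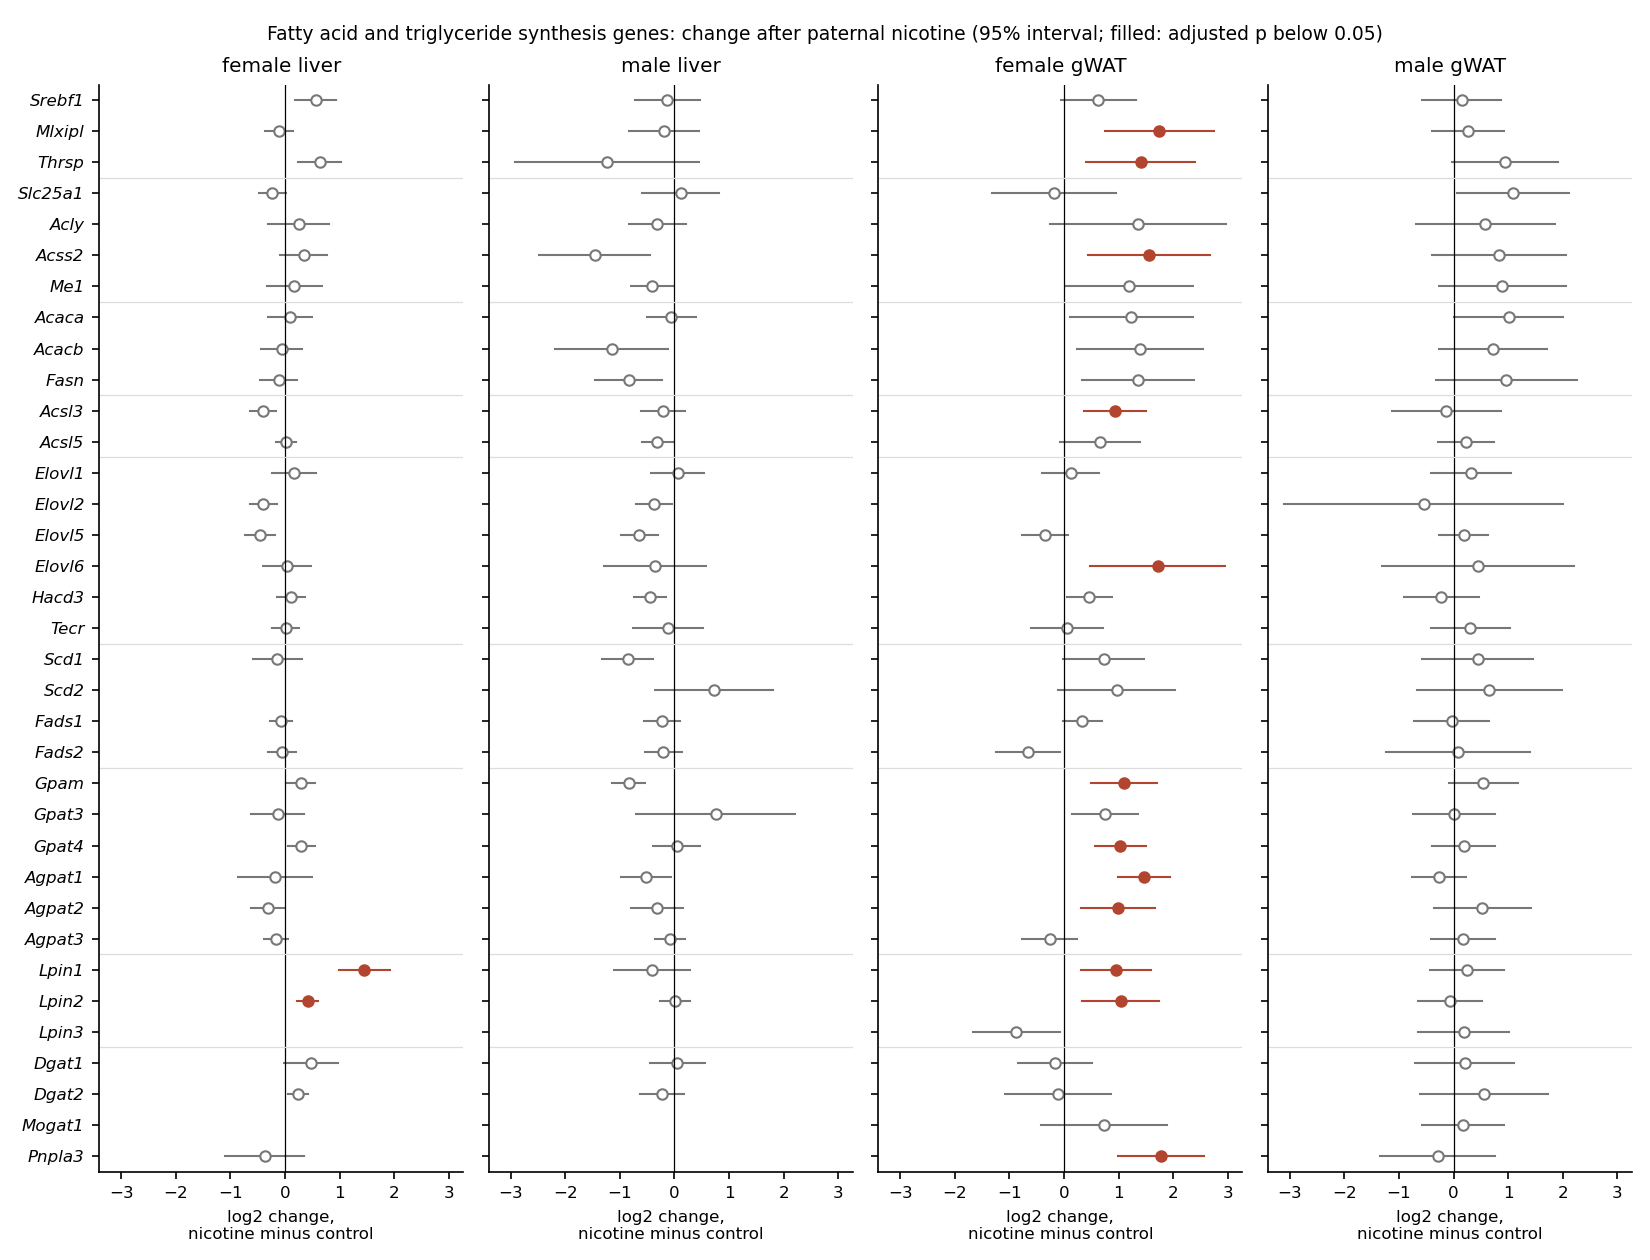
Log2 change (nicotine minus control) of each synthesis gene, grouped by role from regulators (top) to triglyceride assembly (bottom), in both tissues of females and males; bars are 95% intervals and filled points passed an adjusted p below 0.05. Lpin1 and Lpin2 are filled in female liver, 12 genes are filled to the right in female gWAT, and none is filled in either male tissue. Genes below the expression filter have no point.

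In sons' liver no synthesis gene passed, and 25 of the 32 tested had negative changes, with a median of -0.28 against 0 over all genes tested (with scaling to library totals, 23 of 32 and -0.17 against 0.11). Limma called 0 synthesis genes, where 0.055% of all genes were called (0.022% higher and 0.033% lower); 11 had an unadjusted p below 0.05 (14.5% of all genes had), edgeR called 0, and DESeq2 called 3 (Gpam, Scd1 and Elovl5) among 186 of 9093 genes. Gpam, the mitochondrial enzyme that places the first acyl group on glycerol 3-phosphate, had 193, 292, 231, 220.2 and 208 normalized counts in nicotine livers, against 402, 332, 492, 387 and 436 in control livers (log2 change -0.84, SE 0.14, adjusted p = 0.0719). Every nicotine liver lay below every control. Scd1, the main stearoyl-CoA desaturase of liver, had 3477, 3295, 4835, 4238 and 3950.4 in nicotine livers, against 7191, 4798, 10503, 5695 and 8774 in control livers (log2 change -0.86, SE 0.22, adjusted p = 0.140); nicotine 3 lay just above the lowest control. Elovl5 had 1449.9, 1278, 1704, 1101 and 1386 in nicotine livers, against 2257, 1806, 2421, 1787 and 2528 in control livers (log2 change -0.64, SE 0.16, adjusted p = 0.128), without overlap. Hacd3, a dehydratase of the elongation cycle (-0.45), and Agpat1, which places the second acyl group (-0.52), also had every nicotine liver below every control, so that 4 of 32 synthesis genes did, where 1.85% of all genes did; none lay above every control, where 1.31% of all genes did. In the authors' deposited table Gpam (adjusted p = 9.58e-05), Scd1 (adjusted p = 0.00508) and Elovl5 (adjusted p = 0.00887) pass.

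Nicotine livers 1 and 5 of sons were far below the rest for part of the pathway. Both lay below the other 8 libraries for 12 of 32 synthesis genes (Thrsp, Acly, Acss2, Me1, Acacb, Fasn, Elovl6, Gpam, Gpat4, Agpat1, Lpin1 and Dgat2), where this was so for 14.8% of all genes tested, and above the other 8 for 2 (Scd2 and Gpat3), where it was so for 11.2%. Thrsp had 37.5, 830.2, 772, 1068 and 79.4 in nicotine livers, against 610.1, 418, 948, 812 and 773 in control livers. Acss2, which makes cytosolic acetyl-CoA from acetate, had 31.6, 200.03, 194, 186 and 45.0 in nicotine livers, against 267, 182, 402, 295 and 297 in control livers (log2 change -1.46). Acacb, the carboxylase whose malonyl-CoA restrains fatty acid oxidation, had 6.62, 40.4, 37.7, 43.5 and 8.19 in nicotine livers, against 38.6, 31.6, 74.5, 47.9 and 56.0 in control livers (log2 change -1.15). For these 3 genes the nicotine group divided into 2 very low libraries and 3 near the controls. Fasn had 148, 395, 228, 291 and 154 in nicotine livers, against 323, 249, 568, 466 and 519 in control livers (log2 change -0.84, adjusted p = 0.228). Lpin1 had 559.8, 1606, 2241, 1494 and 679 in nicotine livers, against 1730.5, 1231, 1609.6, 1389.5 and 1775 in control livers.

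Without nicotine livers 1 and 5 the median change of the synthesis genes in sons' liver was -0.10 and 21 of 32 were negative, with 0 called. Thrsp then had a log2 change of 0.36 (against -1.23 with all libraries), Acacb -0.23, Acss2 -0.53, Fasn -0.45 and Lpin1 0.19. Gpam (-0.72), Elovl5 (-0.68), Scd1 (-0.80) and Hacd3 (-0.41) kept changes close to those with all libraries. Leaving out nicotine 2 and 4 in place of 1 and 5, Gpam was called (-0.95, adjusted p = 0.0400). Beside these values, the 8 hepatocyte markers summed to 51947 and 52372 in nicotine 1 and 5, against 68401 to 79789 in the controls, and the 5 fibroblast markers to 1786 and 1513, against 562 to 727. Fibroblast markers were also high in nicotine 4 (1495), and summed to 623 and 614 in nicotine 2 and 3. The 8 macrophage markers summed to 618 and 563 in nicotine 1 and 5, against 291 to 435 in the controls, and the 5 markers of lipid-loaded macrophages to 350.2 and 337, against 100.2 to 162. None of these markers was at 0 in a whole group. Their part in the low values was not tested.

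**Figure D2:**
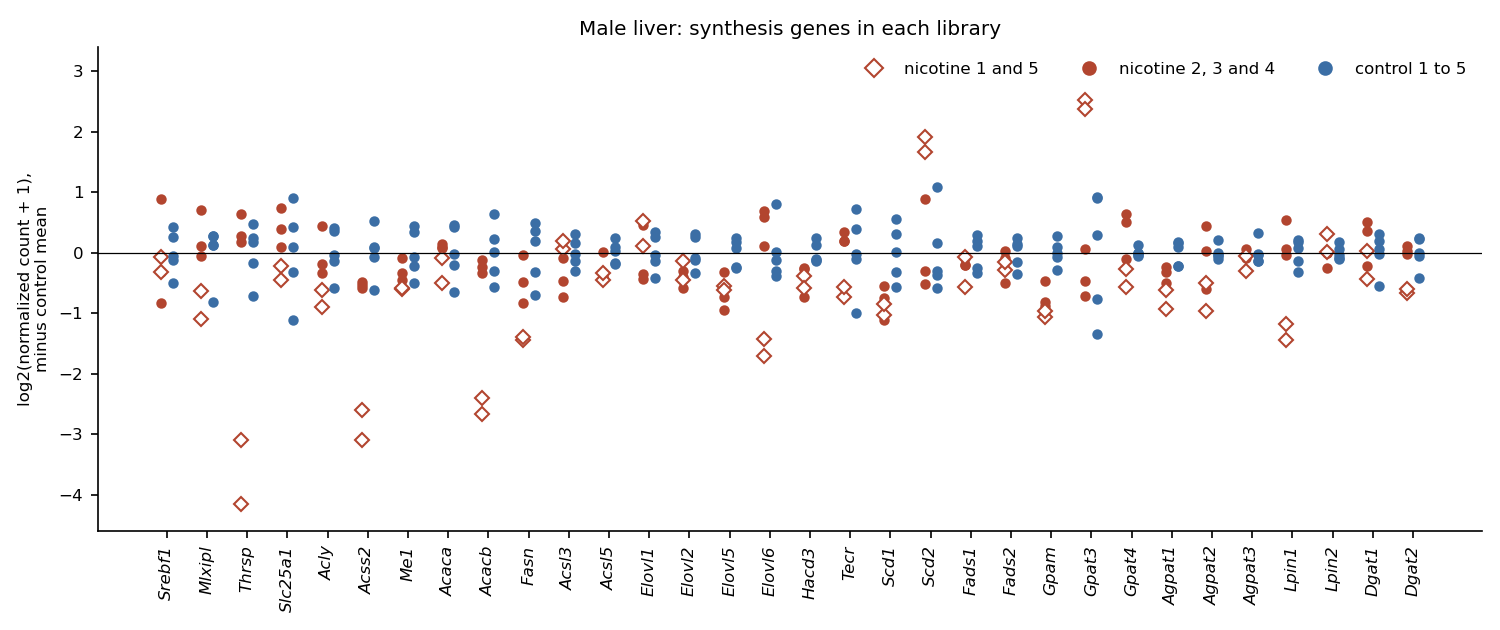
Male liver: log2(normalized count + 1) of each tested synthesis gene minus its control mean, 1 point per library (open diamonds, nicotine 1 and 5; red circles, nicotine 2, 3 and 4; blue circles, controls). The open diamonds lie far below the rest for Thrsp, Acss2, Acacb, Fasn, Elovl6 and Lpin1 and above them for Scd2 and Gpat3, while for Gpam, Scd1 and Elovl5 all nicotine libraries lie low.

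The response of liver differed between daughters and sons for 2 of 31 synthesis genes, both with the higher change in daughters (1.56% of all genes tested were called, 0.862% in that direction), by an interaction term over the 4 liver groups. For Gpam the change was 0.28 in daughters and -0.84 in sons, a difference of 1.12 (female minus male; SE 0.20, adjusted p = 0.00554). It stayed called in all 20 fits that left out a library and without male nicotine 1 and 5 (1.01, adjusted p = 0.00931). For Lpin1 the change was 1.45 in daughters and -0.41 in sons, a difference of 1.86 (SE 0.44, adjusted p = 0.0331). That call was lost without male nicotine 1 and 5 (1.26, adjusted p = 0.0523), with edgeR (adjusted p = 0.0572), and in 9 of the 20 fits that left out a library (female control 3, 4 or 5, female nicotine 3 or 4, male control 1, 3 or 5, or male nicotine 5). Of the 31 genes, 26 had a positive difference and the median was 0.34, against 0.006 over all genes tested.

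Daughters' gWAT showed the widest set of calls. Of 34 synthesis genes tested, 12 rose with paternal nicotine and none fell, where 12.4% of all genes rose and 12.8% fell (25.2% in either direction). In glycerolipid assembly, 4 of 6 acylation enzymes (Gpam, Gpat4, Agpat1 and Agpat2) and 2 of 3 lipins (Lpin1 and Lpin2) rose, as did 2 of 3 regulators (Mlxipl and Thrsp). Acss2, Acsl3, Elovl6 and Pnpla3 were the others. Positive changes were seen for 27 of the 34 genes, 20 had an unadjusted p below 0.05 (38.2% of all genes had), and the median was 0.94, against -0.03 over all genes tested.

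Mlxipl and Thrsp were the regulators called. Mlxipl, which encodes ChREBP, had 97.5, 278, 568, 315 and 205 normalized counts in nicotine gWAT, against 131, 97.1, 107, 22.9 and 71.2 in control gWAT (log2 change 1.74, SE 0.47, adjusted p = 0.0152). Nicotine 1 lay among the controls and the other 4 nicotine libraries above all of them. Thrsp had 1119, 4049, 7763, 4679 and 2136 in nicotine gWAT, against 1406, 864, 2840.4, 695 and 1118 in control gWAT (log2 change 1.41, SE 0.47, adjusted p = 0.0398); nicotine 1 and 5 lay within the control range. Srebf1 averaged 67.8 ± 29.0 in nicotine gWAT and 43.8 ± 22.1 in control gWAT (SD, n = 5 each) and did not pass (log2 change 0.63, adjusted p = 0.164).

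Of the enzymes that make the chain, the 3 of the malonyl-CoA and palmitate step had changes of 1.23 (Acaca), 1.38 (Acacb) and 1.35 (Fasn), and none passed. Fasn had 2214, 8815, 15878, 11051 and 5743 in nicotine gWAT, against 2997, 2571, 6635, 1356 and 2647 in control gWAT (SE 0.48, adjusted p = 0.0525). Nicotine 1 lay below 4 of the 5 controls and control 3 above nicotine 5, so the groups overlapped. Acly, with 175, 1959, 4552, 1974 and 729 in nicotine gWAT and 258, 581, 2084, 229 and 289 in control gWAT, overlapped more: nicotine 1 was the lowest of all 10 and control 3 lay above 4 of the 5 nicotine libraries (log2 change 1.35, SE 0.75, adjusted p = 0.203). Elovl6, which lengthens palmitate to stearate, had 263, 1620.5, 2566, 2284 and 802 in nicotine gWAT, against 205, 419.6, 1046, 183 and 319 in control gWAT (log2 change 1.71, SE 0.58, adjusted p = 0.0424). Nicotine 1 and 5 lay within the control range, which control 3 extended, and the other 3 nicotine libraries above it. Acss2 (1.56, adjusted p = 0.0427) and Acsl3 (0.94, adjusted p = 0.0203) rose too. Scd1 averaged 32788 ± 12820.0 in nicotine gWAT and 19093 ± 6336 in control gWAT (adjusted p = 0.137). In the authors' deposited table, which uses another test, 12 synthesis genes pass, among 2903 of 17140 genes. There Scd1 passes (adjusted p = 0.0438) and Acss2 does not (adjusted p = 0.0594). Negative changes, none called, were found for Elovl5 (-0.34), Fads2 (-0.65), Lpin3 (-0.87), Agpat3 (-0.27), Slc25a1, the citrate carrier (-0.18), Dgat1 (-0.16) and Dgat2 (-0.11).

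Agpat1 and Pnpla3 had the clearest separation. Agpat1 had 100.9, 158, 117, 180.3 and 101.3 normalized counts in nicotine gWAT, against 55.9, 32.1, 41.9, 44.9 and 60.5 in control gWAT (log2 change 1.46, SE 0.22, adjusted p = 0.000609). Pnpla3, a lipid droplet protein with acylglycerol hydrolase and transacylase activities and itself a known lipogenic target, had 76.8, 175, 307, 229.6 and 86.3 in nicotine gWAT, against 49.98, 30.2, 71.6, 29.3 and 49.7 in control gWAT (log2 change 1.78, SE 0.37, adjusted p = 0.00372). For both, all nicotine libraries lay above all controls; 2 of 34 synthesis genes did so, where 8.48% of all genes did, and none lay below all controls, where 8.19% did. Gpam had 522, 837, 768, 1203 and 686 in nicotine gWAT, against 581, 413, 454, 189 and 292 in control gWAT (log2 change 1.10, SE 0.28, adjusted p = 0.0124), and among nicotine libraries nicotine 1 lay within the control range. Gpat4, a glycerol-3-phosphate acyltransferase of the endoplasmic reticulum, rose by a log2 change of 1.03 (adjusted p = 0.00461), and Agpat2, which places the second acyl group, by 0.99 (adjusted p = 0.0343). Lpin1 had 728, 1074, 1566, 1602 and 861 in nicotine gWAT, against 1106, 541, 611, 328 and 519 in control gWAT (log2 change 0.95, SE 0.30, adjusted p = 0.0311). Lpin2 rose by 1.04 (SE 0.33, adjusted p = 0.0329).

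Start regions are given for genes called here and, for comparison, for Fasn, in the same convention (250 bases, GRCm38.p6, the gene's strand 5′ to 3′). Capitals mark CCAAT (on the other strand it reads ATTGG), the E-box core CACGTG and the sterol element core TCACNCCAC. Mlxipl is given at both of its listed starts.
Mlxipl, chr5:135089640-135089889, plus strand: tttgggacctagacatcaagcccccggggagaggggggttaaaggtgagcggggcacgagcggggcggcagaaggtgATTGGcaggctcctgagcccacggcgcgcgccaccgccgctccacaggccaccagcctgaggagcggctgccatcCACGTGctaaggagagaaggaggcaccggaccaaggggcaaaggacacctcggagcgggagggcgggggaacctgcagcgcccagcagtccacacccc
Mlxipl, chr5:135106641-135106890, plus strand: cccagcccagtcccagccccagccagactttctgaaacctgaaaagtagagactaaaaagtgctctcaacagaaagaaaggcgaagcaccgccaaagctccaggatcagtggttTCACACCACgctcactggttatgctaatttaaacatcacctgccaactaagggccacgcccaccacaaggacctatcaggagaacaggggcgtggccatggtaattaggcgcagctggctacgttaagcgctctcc
Fasn, chr11:120824548-120824797, minus strand: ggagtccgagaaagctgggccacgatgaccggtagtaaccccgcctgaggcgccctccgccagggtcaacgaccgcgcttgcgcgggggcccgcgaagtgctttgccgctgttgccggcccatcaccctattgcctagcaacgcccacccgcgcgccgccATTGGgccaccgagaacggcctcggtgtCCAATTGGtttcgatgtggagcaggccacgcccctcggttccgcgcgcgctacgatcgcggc
Gpam, chr19:55127239-55127488, minus strand: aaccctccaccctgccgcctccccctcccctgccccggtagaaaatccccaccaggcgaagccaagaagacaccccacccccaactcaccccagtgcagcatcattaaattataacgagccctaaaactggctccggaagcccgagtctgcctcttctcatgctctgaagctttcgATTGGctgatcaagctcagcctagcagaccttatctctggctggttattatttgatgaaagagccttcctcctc
Agpat1, chr17:34605611-34605860, plus strand: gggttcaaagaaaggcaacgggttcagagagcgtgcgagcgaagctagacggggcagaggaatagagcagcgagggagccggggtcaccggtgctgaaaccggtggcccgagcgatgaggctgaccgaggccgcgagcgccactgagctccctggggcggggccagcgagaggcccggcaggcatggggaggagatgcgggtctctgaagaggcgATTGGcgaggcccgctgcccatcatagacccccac
Pnpla3, chr15:84167566-84167815, plus strand: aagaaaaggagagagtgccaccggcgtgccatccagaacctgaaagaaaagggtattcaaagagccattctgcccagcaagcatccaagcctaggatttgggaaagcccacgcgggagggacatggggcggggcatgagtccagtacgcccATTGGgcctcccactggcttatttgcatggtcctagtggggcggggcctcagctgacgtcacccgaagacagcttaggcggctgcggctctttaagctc
TCACNCCAC was found in 1 of the 40 windows, that of Mlxipl at its second start, and 1.05% of all promoters hold it. CCAAT was found in 19 of the 40 windows, and 33.8% of all promoters hold it; Fasn has 3 copies, the last pair overlapping in 1 run on opposite strands. Gpam, Agpat1 and Pnpla3 have 1 copy each in the window shown; Gpam and Agpat1 each have another listed start, not shown, whose window holds none of the 3 motifs. The Mlxipl window at its first start holds 1 copy beside its CACGTG.

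**Figure D3:**
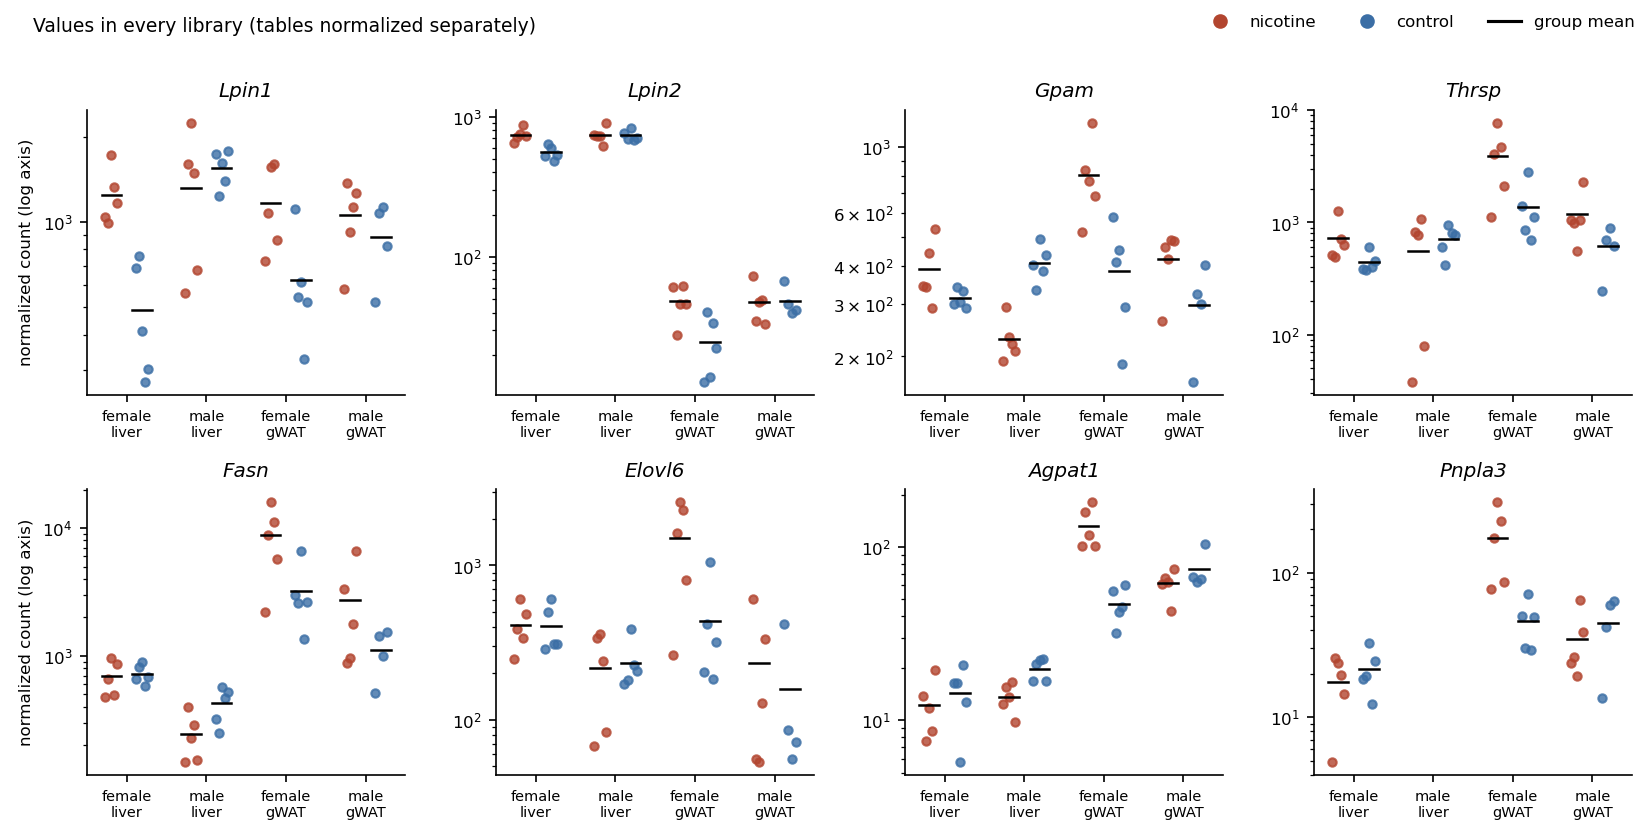
Normalized counts on a log axis for 8 synthesis genes in every library of the 4 tables (red, nicotine; blue, control; bars, group means; each table normalized separately). The 5 nicotine points for Lpin1 and Lpin2 lie above all controls in female liver, those for Gpam lie below all controls in male liver, and those for Agpat1 and Pnpla3 lie above all controls in female gWAT. Pnpla3 in male liver is not drawn because it was below the filter.

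The number of genes called in daughters' gWAT depended on the scaling. With scaling to library totals in place of the authors' size factors (a choice made after seeing the data), the median change of all genes moved by -0.33 (to -0.36), 5 synthesis genes were called higher (Agpat1, Pnpla3, Gpat4, Mlxipl and Gpam) and 3 lower (Fads2, Lpin3 and Elovl5), and the share of all calls that were higher was 15.4% in place of 49.1%. The median of the synthesis genes was then 0.60. Nicotine 1 sat nearest the controls for many of these genes. Without it 17 were called higher, Fasn, Scd1, Acly, Acaca, Me1 and Scd2 among them. Of the 10 fits that left out a library, this one also called the most genes of all, 2761, against 2656 with all libraries. Without control 5 or nicotine 3 the count of synthesis genes was 6. Without control 2, which carried muscle transcripts, it was 7. Agpat1, Pnpla3, Gpat4, Mlxipl, Gpam and Acsl3 stayed called in all 10 fits that left out a library, while Lpin1, Lpin2, Thrsp, Acss2, Elovl6 and Agpat2 were each called in 3 of them. EdgeR called 8 of the 12, not Lpin1, Lpin2, Agpat2 or Acss2. The number of all genes called by edgeR or with library totals is not given here, so these counts stand without a background. The 35 genes summed to 23122 to 85827 normalized counts in nicotine gWAT and 20259 to 52498 in control gWAT, with nicotine 1 the lowest of its group and control 3 the highest of its own.

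Markers of other cells of the depot differed in the same libraries. Summed macrophage markers (7 of 8 listed genes, with Vsig4 at 0 in all nicotine libraries) were 124 to 262 in nicotine gWAT and 327 to 730.4 in control gWAT, without overlap, and all 3 of them that were tested fell (Csf1r -1.82, Adgre1 -1.40 and C1qa -1.10). Fibroblast markers (5 of 5) summed to 2222 to 7572 in nicotine gWAT and 4314 to 10209 in control gWAT, and 2 of 5 fell (Pdgfra -2.08 and Dcn -0.96). Mesothelial markers (5 of 5) summed to 72.7 to 187 in nicotine gWAT and 137 to 297 in control gWAT, and 3 of 5 fell. Endothelial markers (4 of 5 listed genes) went the other way, with overlap. They summed to 752 to 1447 in nicotine gWAT and 478 to 1106.5 in control gWAT, and none of the 3 tested was called. Adipocyte markers (8 of 8) summed to 36220.0 to 62551 in nicotine gWAT and 41208 to 117440.0 in control gWAT; of 7 tested, Plin1 rose (1.46) and none fell. Brown adipocyte markers (3 of 3) summed to 131 to 2714 in nicotine gWAT, highest in nicotine 3, and 71.2 to 902 in control gWAT, with overlap, and none was called. Markers of lipid-loaded macrophages (5 of 5) summed to 48.1 to 182 in nicotine gWAT and 107 to 324 in control gWAT, and 1 of 2 tested fell. The part of these cell types in the rise of the synthesis genes was not tested. Longer transcripts also had higher changes in this table (Spearman rho 0.23 across genes, which are not independent); with each library's trend on length and GC content removed, 11 of the 12 genes were still called and Elovl6 was not. Mlxipl, Acss2, Elovl6, Gpam, Agpat1, Agpat2 and Pnpla3 overlap an annotated gene on the opposite strand, and without stated strand use those reads cannot be told apart.

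In sons' gWAT no synthesis gene was called by limma, edgeR or DESeq2, and no gene of the whole table was called by limma (0.0%; 182 of 11210 had an unadjusted p below 0.05). Among the 35 synthesis genes tested, 28 had positive changes, with a median of 0.25 against 0.007 over all genes, and 2 had an unadjusted p below 0.05: Slc25a1 (1.09) and Acaca (1.01). Acaca, the cytosolic acetyl-CoA carboxylase, had 530.4, 279, 198, 428 and 960.0 normalized counts in nicotine gWAT, against 105, 319.6, 213 and 243 in the 4 control columns. Fasn had 3312, 884, 963, 1768 and 6654 in nicotine gWAT, against 513, 1435, 992 and 1541 in control gWAT (log2 change 0.97, 95% interval -0.33 to 2.26, adjusted p = 0.9996). Slc25a1 had 139.9, 93.2, 47.4, 135 and 369 in nicotine gWAT, against 55.3, 71.9, 57 and 51.2 in control gWAT. In all 3 the groups overlapped and nicotine 5 was the highest library, and the same library was the highest for Thrsp, Me1, Scd1, Gpat3, Dgat1 and Dgat2. The genes that separated best in daughters had negative changes here that did not pass: -0.27 for Agpat1 and -0.29 for Pnpla3. No synthesis gene had groups that did not overlap, where 0.339% of all genes lay higher and 0.393% lower without overlap. Without nicotine 1 and control column 1, which carried the most epididymal transcripts, 0 synthesis genes were called and the median was 0.19.

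Between the sexes, the gWAT response differed for 2 of 34 synthesis genes, both larger in daughters. Of all genes tested 8.87% were called, 4.44% with the higher change in daughters and 4.43% with the lower. Counted in either direction, the synthesis genes were thus called no more often than all genes. For Agpat1 the change was 1.46 in daughters and -0.27 in sons, a difference of 1.72 (SE 0.32, adjusted p = 0.00394), called in all 19 fits that left out a library. For Pnpla3 it was 1.78 in daughters and -0.29 in sons, a difference of 2.07 (SE 0.63, adjusted p = 0.0447), called in 5 of the 19 (without female control 3, female nicotine 1 or 5, male control column 1 or male nicotine 4) and missed with no filter on low genes (adjusted p = 0.0598) and with scaling to library totals (adjusted p = 0.0706). The other 32 did not pass, Mlxipl (1.48), Lpin2 (1.10) and Fasn (0.38) among them, and the median difference was 0.46, against -0.03 over all genes. With scaling to library totals these medians were 0.14 and -0.34, and 12.1% of all calls had the higher change in daughters, in place of 50.1%.

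Liver and gWAT of daughters differed in their response for 6 of 31 synthesis genes, all with the lower change in liver. Of all genes tested 19.4% were called, 11.0% in that direction and 8.42% in the other. Counted in either direction, the synthesis genes were thus called about as often as all genes. The difference, liver minus gWAT, was -2.15 for Pnpla3 (adjusted p = 0.00884), -1.85 for Mlxipl (adjusted p = 0.0159) and -1.64 for Agpat1 (adjusted p = 0.00641). It was -1.34 for Acsl3 (adjusted p = 0.00316), -1.29 for Agpat2 (adjusted p = 0.0167) and -0.73 for Gpat4 (adjusted p = 0.0478). The other 5 were called in all 20 fits that left out a library and Gpat4 in 6 of them; its call was also lost with no filter (adjusted p = 0.0646), edgeR (0.0829) and DESeq2 (0.0862). Acsl3 had a negative change in liver (-0.40) and rose in gWAT (0.94). Lpin1 was called in both tissues with changes of 1.45 in liver and 0.95 in gWAT, and the difference of 0.50 did not pass (SE 0.42, 95% interval -0.36 to 1.37). Lpin2 likewise was called in both, with 0.41 in liver and 1.04 in gWAT and a difference of -0.62 (adjusted p = 0.212). Fasn had a difference of -1.46 (adjusted p = 0.0635). Of 31 genes, 25 had a negative difference, with a median of -0.77 against -0.04 over all genes. With scaling to library totals the median of all genes moved by 0.36 and 84.4% of all calls had the higher change in liver, in place of 43.3%; Acsl3, Pnpla3, Mlxipl and Agpat1 remained called lower, and Fads2 was called higher (0.97).

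In sons the tissues did not differ past the threshold for any synthesis gene with limma (0.0% of all genes; 408 of 8240 had an unadjusted p below 0.05) or edgeR, while DESeq2 called Gpam and 10 of 32 had an unadjusted p below 0.05. Gpam had a log2 change of -0.84 in liver and 0.55 in gWAT, a difference of -1.39 (SE 0.31, adjusted p = 0.458). For Fasn the changes were -0.84 in liver and 0.97 in gWAT, and the difference was -1.81 (adjusted p = 0.933). Negative differences were found for 28 of 32 genes and the median was -0.50, against 0.02 over all genes. Without male liver nicotine 1 and 5 the difference was -1.27 for Gpam and -1.42 for Fasn, and the median was -0.41.

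Other genes of the pathway, 51 in all and outside the 35, were counted beside them. In daughters' liver 3 of 33 tested fell and none rose (1.67% and 1.61% of all genes). Insig2, which holds SREBP in the endoplasmic reticulum, had 491, 391, 562, 321 and 496 normalized counts in nicotine livers, against 1008, 953, 688, 882 and 945 in control livers, without overlap (log2 change -0.999, SE 0.13, adjusted p = 0.000164). Mid1ip1, a partner of acetyl-CoA carboxylase and relative of Thrsp (-0.56, adjusted p = 0.00197), and Cebpa (-0.39, adjusted p = 0.0446) fell too. The change of Insig2 differed between the sexes: it was -0.999 in daughters' liver and 0.15 in sons' liver, a difference of -1.15 (adjusted p = 0.00846). In sons' liver 0 of 37 and in sons' gWAT 0 of 38 passed with limma, and 9 and 1 of them had an unadjusted p below 0.05. Over the 51, the gWAT response differed between the sexes for 3 of 38 tested (8.87% of all genes), with Idh1 higher in daughters (1.62, female minus male) and Usf2 (-1.36) and Agpat4 (-1.45) lower.

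In daughters' gWAT 7 of 39 of these genes rose and 3 fell (12.4% and 12.8% of all genes). Idh1, a cytosolic source of NADPH, averaged 1032 ± 204 in nicotine gWAT and 352 ± 84.8 in control gWAT (log2 change 1.56, SE 0.20, adjusted p = 0.000232). Gk, the glycerol kinase (1.58), and Gpd1, which makes glycerol 3-phosphate from a glycolytic intermediate (1.38), rose, as did Elovl3 (1.78), Insig1 (1.02), Acsl1 (0.75) and Scap (0.68). Usf2, an E-box factor (-1.21), Agpat4 (-1.25) and Hacd1 (-1.03) fell. Agpat1 and Agpat2 thus rose where Agpat4 fell, and Agpat3 had a change of -0.27 that did not pass.

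Finally, the genes were followed from library to library within groups, as the correlation with Fasn of Acly, Acaca, Elovl6, Scd1, Thrsp and Srebf1 after removing group means (24 relations, two-sided exact permutation of libraries within groups, Benjamini-Hochberg over the 24). The same 17 passed for Pearson's r and for Spearman's rho. The genes of a library share its depth and its tissue composition, so this is a description of how the pathway varied between samples. In female gWAT all 6 followed Fasn, from r = 0.88 for Srebf1 (rho = 0.89, exact permutation p = 0.000694, adjusted 0.00278) to r = 0.98 for Thrsp (rho = 0.99, exact permutation p = 6.94e-05, which is the smallest the design can give, adjusted 0.000556; n = 10). Without the 2 libraries farthest in Fasn the r values were 0.82 and 0.97. In female liver Acly, Acaca, Elovl6 and Scd1 followed Fasn (r = 0.90, 0.96, 0.90 and 0.77; rho = 0.90, 0.93, 0.85 and 0.76), with exact permutation p from 6.94e-05 to 0.00444 and adjusted values from 0.000556 to 0.00762. Without the 2 farthest libraries r was 0.80, 0.94, 0.83 and 0.73. Thrsp (r = 0.61, rho = 0.42) and Srebf1 (r = 0.45, rho = 0.37) did not pass there.

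In male liver Acly (r = 0.89, rho = 0.89), Acaca (r = 0.80, rho = 0.81), Elovl6 (r = 0.79, rho = 0.73) and Thrsp (r = 0.79, rho = 0.83) passed, with exact permutation p from 0.00215 to 0.0189 and adjusted values from 0.00470 to 0.0283. Without nicotine 1 and 5, which are also the 2 libraries farthest in Fasn, r was 0.83, 0.83, 0.55 and 0.82. Scd1 (r = 0.41, rho = 0.44) and Srebf1 (r = 0.51, rho = 0.41) did not pass in male liver. In male gWAT Acaca (r = 0.95, rho = 0.90), Scd1 (r = 0.85, rho = 0.78) and Thrsp (r = 0.79, rho = 0.70) passed over 9 libraries, with exact permutation p from 0.00139 to 0.0201 and adjusted values from 0.00370 to 0.0284. Srebf1 (r = 0.75, rho = 0.75, adjusted 0.0611) did not. Without the 2 libraries farthest in Fasn, control column 1 and nicotine 5, r was 0.88 for Acaca and was 0.51 for Scd1 and 0.35 for Thrsp, so these last 2 relations rest on those libraries. Acly (r = 0.60, rho = 0.72) and Elovl6 (r = 0.41, rho = 0.58) did not pass with all libraries. Their r was 0.92 and 0.98 without control column 1 and nicotine 1, which carried the most epididymal transcripts.

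**Figure D4:**
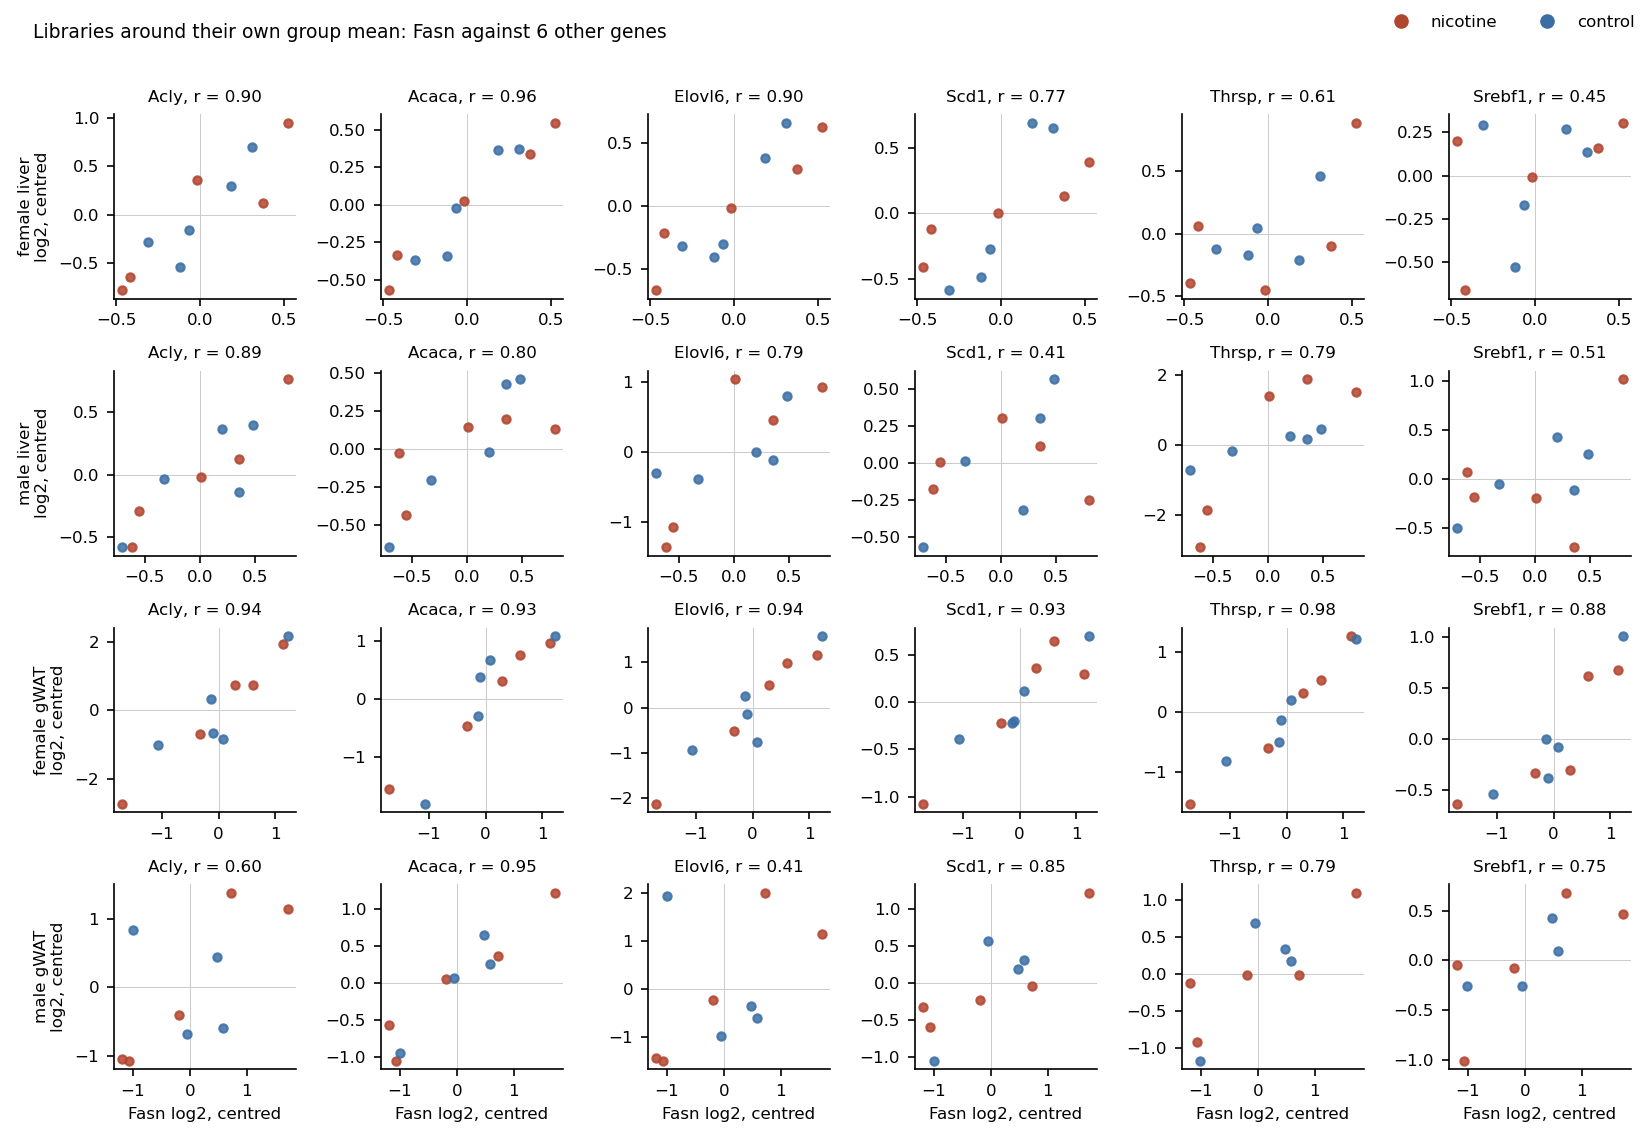
Log2(normalized count + 1) of 6 synthesis genes (vertical axes) against Fasn (horizontal axes), both minus their group mean, for nicotine (red) and control (blue) libraries of the 4 tables. Pearson's r is printed over each panel; points lie along a line for all 6 genes in female gWAT (r of 0.88 to 0.98) and scatter most for Srebf1 in female liver, Scd1 in male liver and Elovl6 in male gWAT (r of 0.45, 0.41 and 0.41).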

How the data were processed

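The deposited tables, 1 per tissue and sex, hold normalized counts, a signal the authors made by dividing read counts by a DESeq2 size factor per library; per the file headers they also hold the authors' log2 fold change and p-value with its adjusted value for each gene. Cutadapt, STAR, DESeq2 and the build mm10 are listed without versions or roles, per the submitters' processing notes; how reads were assigned to genes and strands, with which annotation, is unstated there. Whole reads were recovered by dividing each deposited normalized count by the value of 1 read: 100% of values were whole within 0.1 reads. The smallest gene total was 10 reads.

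The main test was limma 3.58.1 (R 4.3.3; trended empirical Bayes) of log2-transformed normalized counts plus 1, over the genes averaging at least 10, within each table or, for interactions, across 4 groups. Also used were edgeR 4.0.16, DESeq2 1.42.0, Python 3.11.15 and SciPy 1.17.1. Of 35 genes, 34 had values in liver and 35 in gWAT; 32 passed the filter in each liver table (Scd2 and Lpin3 were below it in females, Pnpla3 and Lpin3 in males), 34 in female gWAT (Elovl2 was below it) and 35 in male gWAT. The 35 genes, their roles, the other pathway genes and the marker lists were chosen with earlier results of these data known. Values per library are given for part of the genes past the threshold or of smallest p in a table, and for core genes. In female gWAT, Acss2, Acsl3, Gpat4, Agpat2 and Lpin2 passed and are given without them. Male gWAT has control columns 1 to 4 for 5 labelled samples, so these numbers name columns only; 5 had been assumed. Same-numbered libraries deviated together little (r from -0.277 to 0.173), and no pairing was used. Between liver and gWAT of females, r of same-numbered libraries was -0.04 to 0.074. The same number was still the best match for nicotine 3, 4 and 5 and for control 1 and 5. These values cannot settle whether the 2 tissues came from the same animals, and tests between tissues treat libraries as independent. Overlapping genes were read from GENCODE M21 on GRCm38 (mm10), and start regions from RefSeq (GRCm38.p6). The code was tested on simulated data. Intervals cover the spread between libraries only. Alternatives were another pseudocount (5), no filter, edgeR and DESeq2 on recovered reads, a replicate block and omission of libraries. Chosen after seeing the data were scaling to library totals (CPM), removal of the length and GC trend, and leaving out male liver nicotine 2 and 4 or male gWAT control column 1 and nicotine 1.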

Additional observations from a re-analysis of the deposited data

Results flagged for a closer look

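A library was singled out where its gap to the nearest of its group was large for the group's range (Dixon's test). Of 266 groups, 29 had one. Chance alone flags about 1 in 20 where values are independent and normally distributed. Here the counts were not log-transformed and genes share libraries, so 29 cannot be set against that rate. Female gWAT control 3 was the highest of its group for 7 genes at once: Acly (2084 normalized counts, the other controls 229 to 581), Me1 (2280.5), Dgat2 (1826, the others 509 to 575), Elovl6 (1046), Acss2 (494), Slc25a1 (424) and Srebf1 (82.1). Male gWAT nicotine 5 was the highest for Scd1 (58060.0, the others 16470.0 to 24268), Thrsp (2279), Dgat2 (2001), Slc25a1 (369) and Gpat3 (159). The libraries with the most epididymal transcripts stood out in male gWAT: nicotine 1 for Fads2 (855), Acsl3 (168), Elovl2 (101.1) and Hacd3 (96.8), and control column 1 for Elovl6 (420.3) and Scd2 (736). Agpat1 was highest in male gWAT control column 4 (103).

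Single genes stood out in other groups. In female gWAT these were Agpat3 in nicotine 3 (271) and Elovl1 in nicotine 5 (48.8); in female liver, Thrsp in nicotine 3 (1256) and Elovl1 in control 1 (42.7). In male liver they were Acsl5 in nicotine 3 (464), Agpat2 in control 1 (88.0), Gpat4 in control 2 (266), Elovl6 in control 3 (390.0), and in control 5 Agpat3 (259) and Mlxipl (121, the lowest of its group).

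Effects that differed between groups by an interaction term were, between the sexes (female minus male), Gpam (1.12) and Lpin1 (1.86) in liver and Agpat1 (1.72) and Pnpla3 (2.07) in gWAT. Between the tissues of females (liver minus gWAT) they were Pnpla3 (-2.15), Mlxipl (-1.85), Agpat1 (-1.64), Acsl3 (-1.34), Agpat2 (-1.29) and Gpat4 (-0.73), all on the log2 scale.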

How the results depend on the processing

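No change of the 35 genes that passed a test turned its direction under an alternative. In female liver 2 synthesis genes were called with a pseudocount of 5, with no filter, by edgeR, DESeq2 and library-total scaling; 1 was called (of 173 genes) without control 4 and nicotine 5, 1 to 5 (185 to 327 genes) without 1 library, the counts of 1 coming without control 4 or 5, those of 4 and 5 without nicotine 5 or 1, and fewer than 200 genes without control 1, control 5 or nicotine 4. In male liver 5 genes were called in all, against 3 by edgeR, 186 by DESeq2 (3 synthesis genes), 0 with the replicate block, 21 (Gpam among them) without nicotine 2 and 4, and 0 to 12 (0 to 1 synthesis genes) without 1 library; 12 genes, Gpam among them, were called without nicotine 2, 3 without control 4 and 0 to 2 without any other library, and 40.0% of the 5 calls with all libraries were higher, against 60.0% of 5 with library-total scaling. In female gWAT 8 synthesis genes were called by edgeR, 14 by DESeq2 and 13 with the replicate block, for which counts over all genes are not given. Without 1 library 6 to 17 were called (6 or 7 without control 2, 4 or 5 or nicotine 3 or 4), of 1946 to 2761 genes in all. For sexes in liver, 1 synthesis gene was called by edgeR, with the replicate block, without male nicotine 1 and 5 and without female control 4 and nicotine 5 (86 genes); 6 (of 488 genes) without male nicotine 2 and 4; 1 to 3 (68 to 280 genes) without 1 library, 3 without male nicotine 2 or 3, and 90 genes or fewer without female control 1, 2 or 5, female nicotine 1 or 4, male control 1 or male nicotine 1; and DESeq2 called 252 genes against 136. For sexes in gWAT, 1 was called with no filter and with library-total scaling, and 1 to 2 (447 to 1116 genes, fewer than 600 without female control 4, female nicotine 2 or 4 or male control column 3 or 4) without 1 library. Between the tissues of females 5 to 12 were called (1278 to 1748 genes), 12 without gWAT nicotine 1. Between those of males DESeq2 called 10 genes with 1 synthesis gene, 1 gene was called without male nicotine 2 and 4, and 0 without any 1 library. Scaling to library totals moved the median of all genes by 0.11 in male liver, -0.33 in female gWAT, -0.31 between the sexes in gWAT, 0.36 between the tissues of females and 0.13 between those of males. The cause of these shifts was not tested. The replicate number gave other calls as a block: it added Thrsp in female liver (adjusted p = 0.00224), and in female gWAT it added Fasn (0.0423), Acly (0.0403) and Scd2 (0.00741) and dropped Lpin1 (0.0710) and Lpin2 (0.0607); it added Acacb (0.0273), Fasn (0.0156) and Elovl6 (0.0113) between the tissues of females and dropped the sex difference of Lpin1 in liver (0.0672); no sample pairing is stated, and no block was fitted for male gWAT, whose 4 control columns could not be tied to the 5 labelled samples. Depth limits the low genes, such as Pnpla3, Lpin3 and Scd2 in liver.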
